A study of Homo sapiens with 27 samples.

Results

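The clustered protocadherins are 54 genes in 3 neighbouring arrays on chromosome 5, taken from the RefSeq gene table of GRCh38.p14 by their symbols (PCDHA, PCDHB, PCDHGA, PCDHGB and PCDHGC followed by a number, and PCDHAC) out of 59792 gene symbols; 53 are protein-coding and PCDHA14 is a pseudogene. They encode cell-surface adhesion molecules of the cadherin superfamily, best known from neurons, where each cell switches on its own choice of isoforms and membranes that carry the same set recognise each other. In the alpha and gamma arrays every gene has a promoter and a large first exon of its own, spliced to constant exons that the array shares, while beta genes consist of a single coding exon. The C-type genes (PCDHAC1, PCDHAC2, PCDHGC3, PCDHGC4 and PCDHGC5) lie nearest the constant exons and are the isoforms whose promoters are used less by chance.

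The span from the start of PCDHA1 to the end of PCDHGC5 was chr5:140786140-141512975 (GRCh38), 726836 bp, covered by 73 windows of 10 kb. The alpha array held 16 genes at chr5:140786140-141012347, of which 15 share their end, the beta array 16 genes at chr5:141051374-141249365, and the gamma array 22 genes at chr5:141330514-141512975, all of which share their end. The span also held 17 entries that are not members, among them SLC25A2, TAF7 and the pseudogenes PCDHB17P, PCDHB18P, PCDHB19P, PCDHGB8P and PCDHGB9P. Because genes of an array overlap down to their shared end, each gene was described by its first 2.5 kb.

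O6-MeG-seq locates O6-methylguanine, the mutagenic base lesion left by the alkylating drug temozolomide (TMZ), by enriching DNA that carries it and marking where a polymerase stops. The DNA came from LN-229, an established human glioblastoma line, either as the transfection control (called WT in the labels) or transfected with MGMT, the protein that removes the methyl group from the lesion. Cells of each line were exposed to 1 mM TMZ or to 1% DMSO as solvent, either 1 time or on 3 occasions spaced 4 h apart. Harvest for DNA followed 24 h after exposure began, with 3 biological replicates for each of these 8 groups. A ninth group was purified (naked) DNA treated with TMZ outside cells, whose replicate 1 came from non-transfected WT cells, replicate 2 from WT and replicate 3 from MGMT cells. Each genotype is represented by 1 line, so the effect of MGMT and other differences between the lines cannot be told apart.

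Each of the 27 libraries is a list of distinct sites with a strand, a base and a score from 0 to 42; the lesion forms at G, and sites at the other bases were used as the measure of background. Unless stated otherwise, sites with a score of at least 30 were used, and a G rate is the number of G sites per 1000000 G sites on the autosomes of the same library, written GPM (GPM per kb for stretches of unequal length). Libraries held 1347019 to 15745885 sites in all. Within the span they held 1543 to 2760 G sites in naked DNA, 207 to 1761 in cells under TMZ and 47 to 227 (median 131) under solvent, so solvent values were the least precise. The solvent library of MGMT cells with 1 exposure, replicate 1, stood apart: 47.8% of its sites in the span were at G, against 37.3% in its TMZ counterpart, so the differences between TMZ and solvent in the span G rate, the gene-start ratio, the high-score share, gamma and the 50 kb block that passed are also given without it. Libraries were also joined into 5 sets by linking each pair that shared more than 1.6 times as many background sites on chromosome 5 as the median pair; 48 of the 85 pairs within sets were above that value and no pair across sets was. Contrasts were repeated within the sets. In 3 of them TMZ and solvent libraries occurred together, whereas the solvent libraries with 3 exposures, replicate 3, formed a set apart from their TMZ counterparts and gave no within-set value. Naked DNA replicates 2 and 3 formed a set without any cell library. Naked DNA and WT cells under TMZ thus shared 1 set only, with 1 library each.

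The promoters of PCDHGC4, PCDHGC3 and PCDHAC2 show where naked DNA was marked at the base level. RefSeq promoter sequences (GRCh38.p14, 250 bases before to 50 after the start) were found for 47 of the 54 genes. The first pair below had the most G positions marked in naked DNA, and PCDHAC2 had the densest gene start among sites of high score. PCDHGC4 lies at chr5:141484780-141485079, PCDHGC3 at chr5:141475716-141476015 and PCDHAC2 at chr5:140966226-140966525, all on the plus strand. Capitals are the positions marked at a G in any naked library, where a capital C is a marked G on the minus strand.
PCDHGC4: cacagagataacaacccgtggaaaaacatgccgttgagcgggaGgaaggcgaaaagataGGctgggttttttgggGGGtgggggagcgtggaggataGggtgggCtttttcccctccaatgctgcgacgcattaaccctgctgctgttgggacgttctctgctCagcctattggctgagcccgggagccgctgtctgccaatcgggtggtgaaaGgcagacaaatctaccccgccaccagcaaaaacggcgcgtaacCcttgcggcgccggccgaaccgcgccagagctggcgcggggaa
PCDHGC3: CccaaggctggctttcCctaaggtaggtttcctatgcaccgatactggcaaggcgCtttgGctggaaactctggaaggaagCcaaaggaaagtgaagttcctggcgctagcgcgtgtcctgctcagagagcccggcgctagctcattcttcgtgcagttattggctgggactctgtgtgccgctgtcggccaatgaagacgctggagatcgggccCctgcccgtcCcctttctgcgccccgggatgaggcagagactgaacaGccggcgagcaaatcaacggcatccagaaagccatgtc
PCDHAC2: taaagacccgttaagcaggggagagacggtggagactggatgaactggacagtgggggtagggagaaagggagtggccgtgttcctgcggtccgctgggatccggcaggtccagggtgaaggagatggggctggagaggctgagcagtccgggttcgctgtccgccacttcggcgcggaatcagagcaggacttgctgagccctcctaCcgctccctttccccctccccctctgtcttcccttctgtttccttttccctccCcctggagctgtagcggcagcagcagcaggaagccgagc
The PCDHGC4 promoter carried 11 marked positions, 8 on the plus and 3 on the minus strand, and 1 of them was also marked in a TMZ-treated cell library. PCDHGC3 carried 8, of which 2 were on the plus and 6 on the minus strand, and PCDHAC2 carried 2, both on the minus strand; none of these was marked in TMZ-treated cells. The PCDHGC4 promoter held runs of neighbouring marked G, and those of PCDHGC3 and PCDHAC2 held single marked positions.

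Over the 47 promoters, naked DNA had 135 marked G sites, with a median of 2 positions per promoter and a single promoter without any. WT cells under TMZ had 108, MGMT cells under TMZ 83 and solvent 26, where 30 promoters had none. These are sums over 3 naked, 6 WT, 6 MGMT and 12 solvent libraries. They are not scaled for the depth of the libraries, so they do not compare the groups. The base before a marked G was a purine for 84.4% of the naked DNA sites (114 of 135; 95% Wilson interval 77.4 to 89.6), against 55.6% of all G in these promoters. The share was 80.6% in WT cells under TMZ (72.1 to 86.9), 72.3% in MGMT cells under TMZ (61.8 to 80.8) and 53.8% under solvent (14 of 26; 35.5 to 71.2). The intervals of the 3 treated groups lay above the share of the sequence itself and that of solvent spanned it. In the other autosomal promoters the same shares were 79.1% in naked DNA, 80.3% in WT cells and 78.9% in MGMT cells under TMZ, and 59.05% under solvent. G after C made up 2.22% of the marked sites of naked DNA, 5.56% in WT cells and 10.8% in MGMT cells under TMZ and 19.2% under solvent, against 13.6% of all G in the member promoters. These shares rest on few sites. In the other autosomal promoters they were 9.75%, 9.26%, 9.99% and 17.7%, against 18.9% of all G there. The intervals above pool libraries and cover counting error only.

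The core letters CGCT of the element that most protocadherin promoters are known to share stand in each of the printed promoters and in most others. On either strand (CGCT or AGCG, which can overlap as AGCGCT) they occurred in 46 of 47 member promoters (97.9%), against 70.0% of all 35116 promoters of the table. On the transcript strand alone they occurred in 46 of 47 member promoters, against 54.3% of all, and by array in 12 of 13 alpha, 14 of 14 beta and 20 of 20 gamma promoters. A match of these letters is a description of the sequence and not of a bound factor, and it does not show that a promoter carries the whole element.

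At a minimum score of 30 no test of the G rate of the whole span passed the threshold. The span held 300.5 ± 29.5 GPM in naked DNA (SD, n = 3), 309 ± 27 in WT cells under TMZ and 303 ± 15 in MGMT cells under TMZ (n = 6 each), and 282 ± 38 under solvent (n = 12). The groups overlapped. Naked DNA of WT cells had 313 and 322 GPM and that of MGMT cells 267. On the log2 scale MGMT libraries under TMZ lay 0.11 to 0.31 above this 1 naked library, and 0.08 to 0.22 above it at the other bases. WT libraries under TMZ lay -0.30 to 0.06 from the mean of WT naked DNA. These line-matched values were not tested. On the log2 scale naked DNA differed from WT cells under TMZ by -0.04 (exact permutation test, two-sided, p = 0.774, adjusted p = 0.903), and MGMT from WT cells under TMZ by -0.02 (p = 0.695, exact). TMZ exceeded solvent by 0.13 (p = 0.0454, exact; adjusted p = 0.136) and 3 exposures exceeded 1 by 0.13 (p = 0.01, exact; adjusted p = 0.0525); neither passed the threshold of 0.05 after Benjamini-Hochberg adjustment over the 21 single-value tests. With no minimum score both differences were larger, 0.20 and 0.23, and passed (adjusted p = 0.0312 and 0.0262, exact). Against the 1 Mb on each side of the span both turned, to -0.06 and -0.0084 (adjusted p = 0.526 and 0.955, exact). Without the solvent library that stood apart the TMZ difference was 0.13 (adjusted p = 0.144, exact). All cell libraries of the first set had 1 exposure. Within the sets that held TMZ libraries of both exposure numbers, 3 exposures exceeded 1 by 0.05 and 0.10, and leaving out a replicate gave 0.076 to 0.18. Sites at the other bases differed by 0.07 between TMZ and solvent (p = 0.043, exact; adjusted p = 0.136). This difference passed without replicate 1 (0.085, adjusted p = 0.0324), without the cell libraries of the first set (0.071, adjusted p = 0.0226) and with no minimum score (0.18, adjusted p = 0.0312), all exact, and it was -0.04 against the 1 Mb on each side. Among the solvent libraries, the other-base rate of MGMT cells was 0.18 lower than that of WT cells, in 6 of 6 comparisons of like-numbered libraries (exact permutation p = 0.005, the smallest this design can give), a comparison added after the data were seen. Under TMZ the planned test of this difference gave -0.08, negative in 5 of 6 comparisons, and did not pass (exact permutation test, p = 0.13, adjusted p = 0.248). The replicate numbers were not taken to pair libraries, so such counts, here and below, describe direction only and the tests do not use them. The surroundings shared this: over both treatments the log2 other-base rate of the 1 Mb on each side was 9.72 ± 0.10 in MGMT and 9.90 ± 0.10 in WT cells (SD, n = 12 each).

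**Figure D1:**
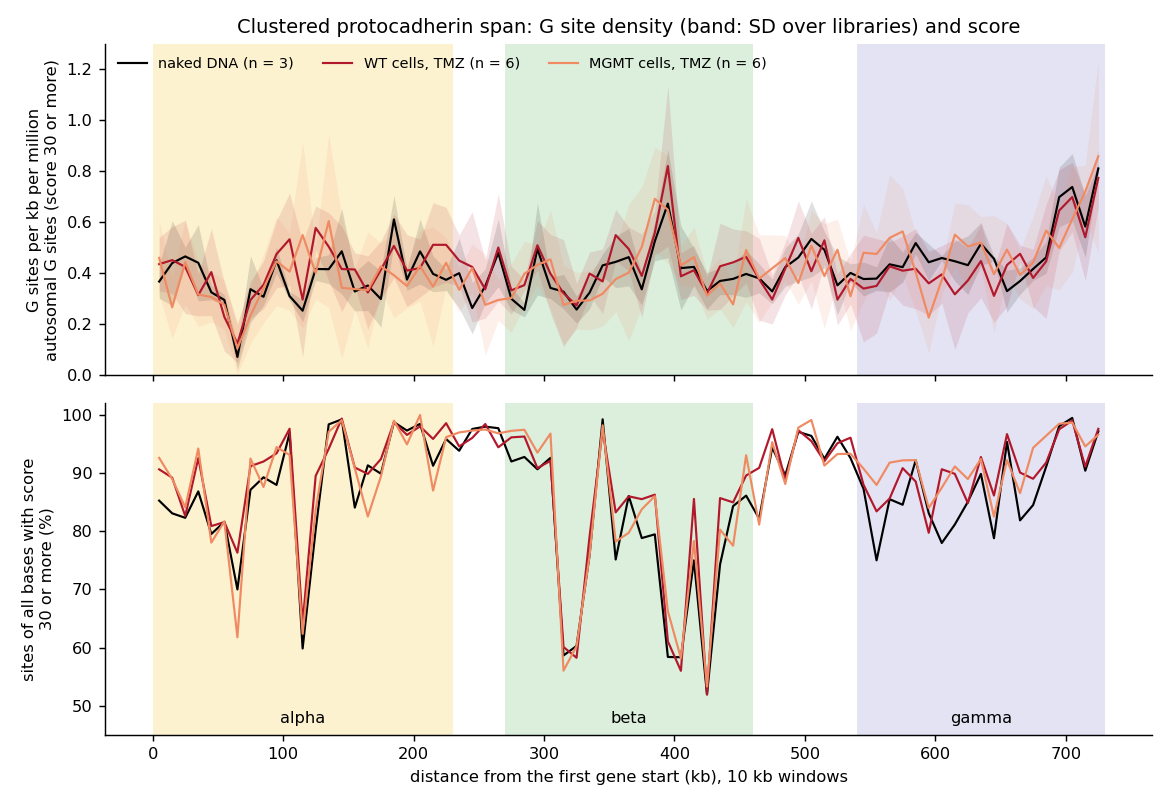
G site density (upper panel, GPM per kb, band: SD over libraries) and share of sites of all bases with a score of at least 30 (lower panel, percent) in each 10 kb window against the distance from the first gene start in kb, for naked DNA and for WT and MGMT cells under TMZ, with the arrays shaded. The lowest density of naked DNA (0.072) lies in alpha at PCDHA9 and PCDHA10, the highest (0.811) at the far end of gamma, and the lowest score share (52.0%) in beta.

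Windows differed several-fold along the span. In naked DNA the window medians were 0.375 GPM per kb in alpha, 0.378 in beta and 0.448 in gamma. The densest alpha window (0.611 ± 0.094) held the start of PCDHAC2, the densest beta window (0.673 ± 0.212) the starts of PCDHB8 and PCDHB16, and the densest gamma window (0.811 ± 0.016) the last stretch of the array, after all gene starts. The emptiest windows of beta (0.257 ± 0.028) and gamma (0.330 ± 0.082) held no gene start. In alpha the emptiest window, with 0.072 ± 0.048, instead held those of PCDHA9 and PCDHA10.

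That alpha window belongs to a stretch with few sites of any kind. It was delimited after its values were seen, as the longest run of 1 kb bins of alpha with fewer sites than the median bin divided by 2 (the median bin held 51 sites over all libraries, bases and scores). The run was 17 kb long, chr5:140843140-140860139, with 5 to 25 sites per bin, and the next longest run had 2 bins. It holds the starts of PCDHA9 and PCDHA10 and the end of the first 2.5 kb of PCDHA8. Its sites per kb were 26.3% of those in the rest of alpha in naked DNA, 28.6% and 27.1% in WT and MGMT cells under TMZ, and 26.3% and 14.7% under solvent. The stretch was below the rest of alpha in each of the 27 libraries, treated or not, and the cause was not tested.

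In alpha the G sites of naked DNA lay more often on the plus than on the minus strand. The span had 2989 plus and 2962 minus G sites in naked DNA. In alpha 56.2% ± 0.6 of the G sites of naked DNA (SD, n = 3) and 56.3% ± 4.7 of those in TMZ-treated cells (n = 12) were on the plus strand, which is the coding strand of every member with a promoter sequence. Solvent libraries averaged 54.8% ± 9.4 (n = 12) and ran from 36.0% to 67.2%, and 1 TMZ-treated library (WT cells, 3 exposures, replicate 1) had 46.4%. The alpha share was not tested. In beta 46.7% ± 0.8 and in gamma 48.5% ± 0.3 of the naked DNA sites were. The log2 plus-to-minus ratio of the span did not pass the threshold between TMZ and solvent (-0.01, p = 0.895), MGMT and WT cells (0.12, p = 0.21), or naked DNA and WT cells (0.01, p = 0.952), all by exact permutation tests.

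In naked DNA and in most TMZ-treated libraries the gene starts were on average denser in G sites than the rest of the span. In naked DNA the first 2.5 kb of the 54 genes, 135000 bp in all, held more G sites per base than the rest of the span, by 0.74, 0.80 and 0.82 on the log2 scale in the 3 libraries. The starts of WT cells with 1 TMZ exposure were above the rest by 0.64, 0.05 and 0.48, and with 3 exposures by 0.51, 0.48 and 0.55. For MGMT cells the ratios were 0.52, -0.02 and 0.60 after 1 TMZ exposure and 0.38, 0.66 and 0.48 after 3. All TMZ-treated libraries but 1 were thus richer in G sites at the gene starts than elsewhere.
Under solvent WT cells gave 0.05, -0.42 and 0.06 with 1 exposure and -0.14, -0.23 and -0.50 with 3. MGMT cells under solvent gave 1.07, -0.68 and -0.29 with 1 exposure and -0.48, -0.50 and -0.60 with 3. Solvent libraries were poorer at the starts than elsewhere or about equal, except the MGMT library that stood apart, which was the highest of all.

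The gene-start ratio rose under TMZ, from -0.22 ± 0.47 under solvent to 0.44 ± 0.21 (SD, n = 12 each), a difference of 0.66 in which TMZ was higher in 11 of 12 pairs of like-numbered libraries (exact permutation test within line and exposure, two-sided, p = 0.0011, adjusted p = 0.0146). Within the library sets the difference was 0.01, 0.66 and 0.78. Without the library that stood apart it was 0.79 (adjusted p = 0.002, exact), and without the cell libraries of the first set, which have the lowest shares of sites with a high score, 0.79 (adjusted p = 0.006, exact). Without replicate 2 it was 0.62 (adjusted p = 0.14, exact) and without replicate 3 it was 0.57 (adjusted p = 0.26, exact), and the call was lost. With the first 5 kb of each gene in place of 2.5 kb the difference was 0.40 (adjusted p = 0.0398, exact). Naked DNA (0.79 ± 0.04, n = 3) lay above every WT library under TMZ (0.45 ± 0.21, n = 6) by 0.33 (p = 0.0238, exact; adjusted p = 0.10), which did not pass after adjustment.

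The rise at the gene starts was not limited to G. Sites at A, C and T gave a start ratio of 0.14 ± 0.08 in naked DNA (n = 3), -0.04 ± 0.37 under TMZ and -0.77 ± 0.47 under solvent (n = 12 each), a TMZ difference of 0.73 in 11 of 12 pairs (p = 0.0015, exact permutation; adjusted p = 0.0119 over 8 tests added after the data were seen). The start ratio of G minus that of the other bases differed by -0.07 between TMZ and solvent (p = 0.638, exact), and it was higher in naked DNA than in WT cells under TMZ by 0.30 (p = 0.0119, exact, the smallest possible; adjusted p = 0.0238). The sites at the other bases thus moved with those at G. Between TMZ and solvent no change of G beyond the other bases passed, so the rise is not read as specific to G. Its cause was not tested.

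The starts of other genes gave a reference for these densities. Against the first 2.5 kb of 15053 other autosomal protein-coding genes, the protocadherin starts differed in G density by 0.07 ± 0.17 on the log2 scale in naked DNA (SD, n = 3) and by -0.06 ± 0.08 under TMZ (n = 12). Under solvent they were lower than other starts, at -0.34 ± 0.32 (n = 12), and the difference between TMZ and solvent was 0.28, in 10 of 12 pairs (p = 0.0106, exact permutation; adjusted p = 0.0238). At the other bases this difference was 0.37, in 12 of 12 pairs (p = 0.0033, exact; adjusted p = 0.0134). Against other starts the G difference of 0.28 was smaller than the 0.66 against the rest of the span. The 0.66 is therefore not read as particular to these genes.

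**Figure D2:**
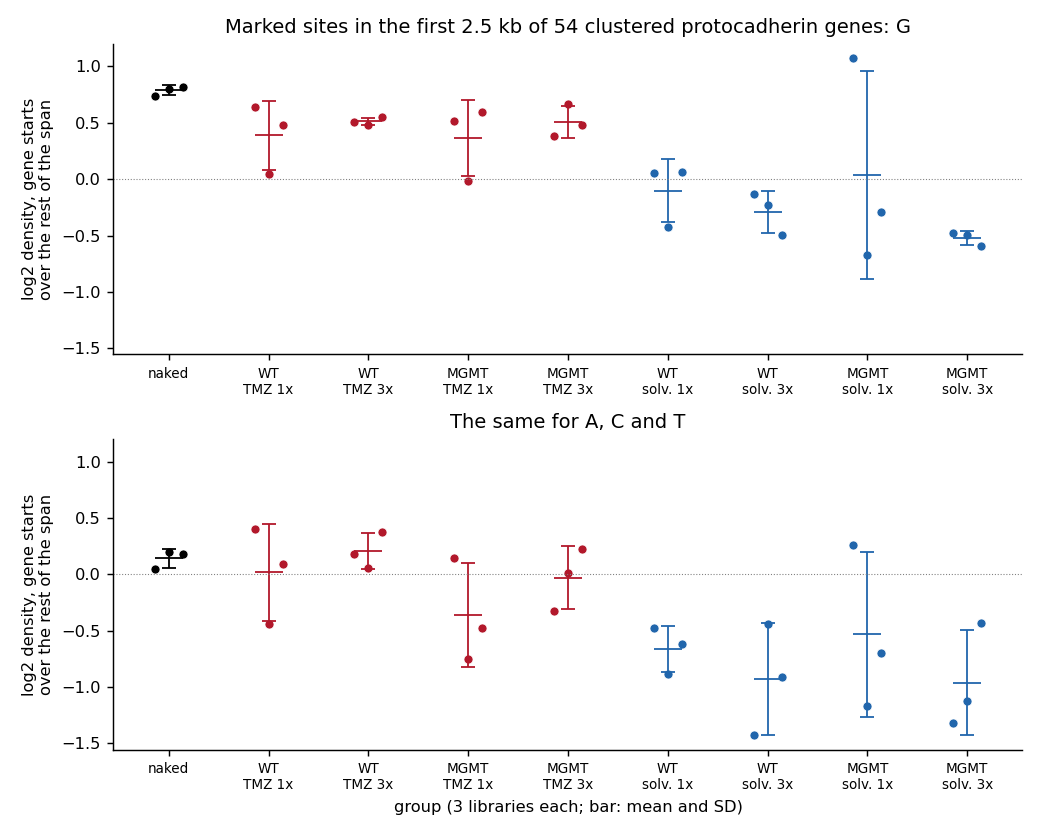
Log2 ratio of site density in the first 2.5 kb of the 54 genes over the rest of the span (y axes), for G (upper panel) and for A, C and T (lower panel), 1 point per library with mean and SD, by group (x axis). At G the naked DNA libraries sit at 0.74 to 0.82 and 1 MGMT solvent library at 1.07 lies above every other library; in both panels the other solvent libraries lie low.

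Single genes carried few sites. A gene start held 5 to 66 G sites over the 3 naked libraries (median 30), and a median of 2 over the 6 WT solvent libraries. In naked DNA the median over the 54 genes was 0.607 GPM per kb. The WT mean under TMZ was above the WT solvent mean for 43 of 54 genes, and the MGMT mean for 39 of 54; naked DNA was above WT cells under TMZ for 35 of 54. These are counts of means with no test, since single starts hold too few sites.

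Among the C-type genes, PCDHAC2 had the densest start of all members at a score of at least 30, with 30, 15 and 21 G sites in the 3 naked libraries and 1.33 ± 0.14 GPM per kb. WT cells under TMZ gave 1.05 ± 0.75 for PCDHAC2, and 1 G site was found over the 6 solvent libraries of each line. PCDHAC1, the other C-type gene of alpha, followed with 11, 20 and 14 sites and 1.01 ± 0.53 in naked DNA, against 0.766 ± 0.202 in WT cells under TMZ. PCDHGC4 reached 0.996 ± 0.205 with 25, 14 and 11 sites, PCDHGC3 0.843 ± 0.319 and PCDHGC5 0.782 ± 0.147. With sites of all scores and bases PCDHAC2 had 75 sites in naked DNA, and PCDHB8 had the most with 167. At a score of at least 30 the means of all 5 C-type starts lay above the median gene in naked DNA, and for PCDHAC1 and PCDHGC3 the SD reached below it. With sites of all scores and bases this did not hold for each. Among the 54 starts PCDHAC2 then ranked 4, PCDHGC4 14, PCDHGC3 21, PCDHAC1 29 and PCDHGC5 35.

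Among the alpha genes proper, PCDHA1, the first, had 0.477 ± 0.161 in naked DNA. PCDHA9 had the emptiest start of all, with 4, 1 and 0 sites and 0.086 ± 0.091, and PCDHA10 had 3, 5 and 3 sites and 0.245 ± 0.131. In MGMT cells under TMZ only 1 and 2 sites were found at these starts over 6 libraries. Both lie in the sparse stretch described above.

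Among the beta genes, PCDHB8 had 34, 9 and 13 sites and 1.05 ± 0.44 in naked DNA, and it was the gene with the highest mean in WT cells under TMZ (1.42 ± 0.56). PCDHB1, the first of the array, had 0.566 ± 0.073 and PCDHB15, the last by position, 0.768 ± 0.226. PCDHB13 was the lowest of beta, with 7, 5 and 3 sites and 0.305 ± 0.092. PCDHGA1, the first gamma gene, had 0.441 ± 0.144. By family, the median gene start of naked DNA was 0.843 in gamma C, 0.666 in gamma B, 0.603 in gamma A, 0.582 in alpha and 0.566 in beta. This order is that of G sites with a score of at least 30. The alternative that follows changes the score and the bases together. With sites of all scores and bases, an alternative added after the data were seen, a gene start of naked DNA held on average 73.9 sites in beta, 58.7 in gamma C, 52.7 in gamma B, 50.6 in gamma A and 49.4 in alpha, so that beta went from the lowest to the highest family.

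**Figure D3:**
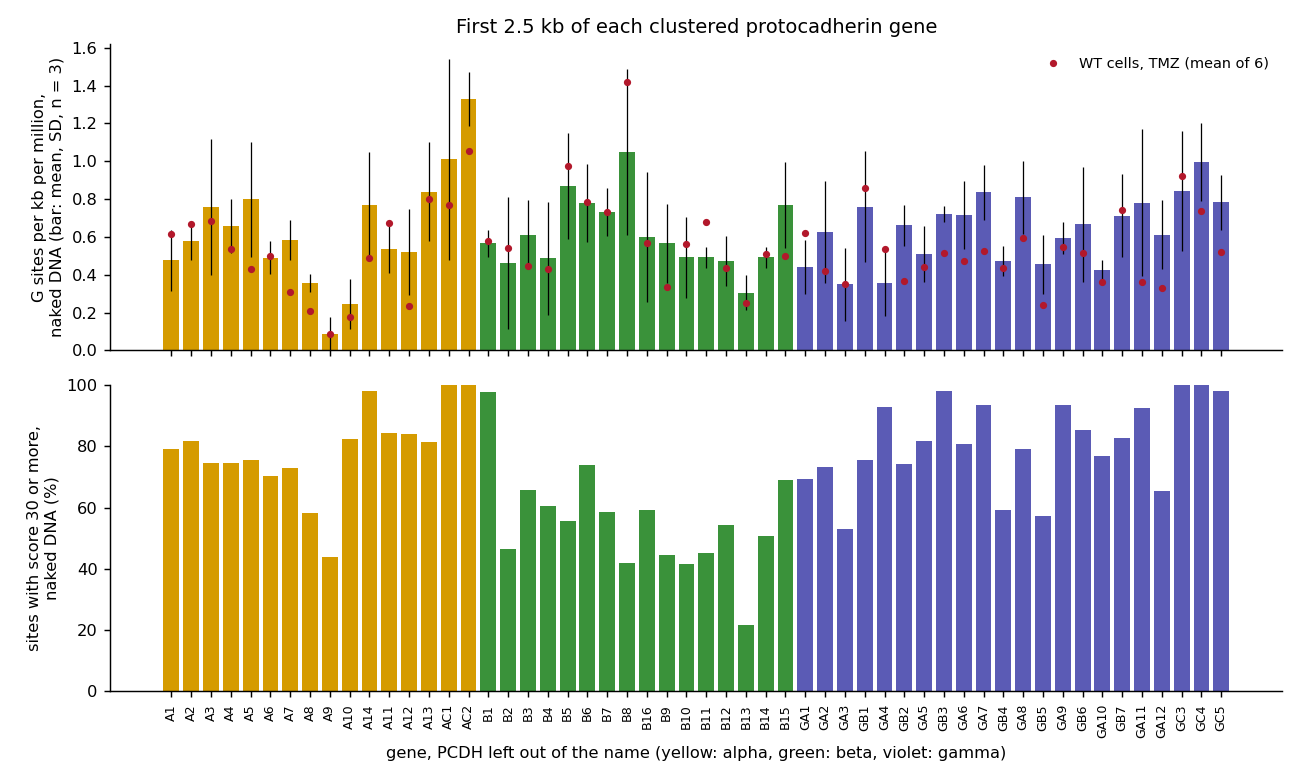
Upper panel: GPM per kb in the first 2.5 kb of each of the 54 genes, in chromosome order, as mean and SD of naked DNA (bars, n = 3) and mean of WT cells under TMZ (red points, n = 6). Lower panel: percent of sites with a score of at least 30 in naked DNA; at a score of at least 30 PCDHAC2 has the highest density (1.33), PCDHA9 the lowest (0.086), and PCDHB13 the lowest score share (21.8%).

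Members also differed in the share of their sites with a score of at least 30, which was lowest in the beta genes and highest in the C-type genes. At the gene starts 70.7% ± 1.3 of the naked DNA sites had a high score (SD, n = 3), against 91.5% ± 1.1 in the rest of the span and 91.6% ± 1.2 at the starts of other autosomal genes. By family the share was 99.4% in gamma C, 81.2% in alpha, 78.7% in gamma A, 75.9% in gamma B and 53.0% in beta. Of the 54 starts, 16 were under 60%: 11 beta, 2 alpha and 3 gamma. PCDHB13 was lowest with 21.8%, PCDHB8 had 41.9%, and PCDHB1, which lies apart from the other beta genes, had 97.6%. PCDHAC1, PCDHAC2, PCDHGC3 and PCDHGC4 had 100%. The windows of PCDHB12 and PCDHB13 (52.0%) and of PCDHB9 and PCDHB10 (58.3%) had the lowest window values. Sites of low score are not in the densities above. The members are paralogs, and how the alignment split reads between near-identical exons is not given in the sources used here, so values of single genes, beta above all, are uncertain.

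The span's share of high-score sites relative to the autosomes differed with treatment, while the means in the span itself lay within 1 SD. The span's share was 85.8% ± 5.6 under TMZ and 85.9% ± 10.3 under solvent (SD, n = 12 each), and 85.1% in naked DNA; on the autosomes it was 80.4% ± 8.9 under TMZ and 74.9% ± 13.6 under solvent. The span's excess over the autosomes was therefore 5.39 ± 4.68 points under TMZ and 11.0 ± 4.0 under solvent, a difference of -5.59 points, negative in 12 of 12 pairs (p = 0.0018, exact permutation; adjusted p = 0.0146). Without replicate 1 it was -3.90 (adjusted p = 0.18, exact) and without replicate 2 it was -6.60 (adjusted p = 0.14, exact), and against the 1 Mb on each side of the span -2.47 (adjusted p = 0.066, exact). Without the library that stood apart it was -5.41 (adjusted p = 0.0226, exact).

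Among the arrays, gamma differed between TMZ and solvent. It held 88.3 ± 12.01 GPM under TMZ and 69.3 ± 12.1 under solvent (SD, n = 12 each), and 90.5 ± 7.3 in naked DNA (n = 3). Under TMZ the lowest gamma library had 62.7, the median was 92.0 and the highest had 103, while under solvent they were 55.7, 63.6 and 90.1, so the groups overlapped. On the log2 scale gamma rose by 0.35, in 10 of 12 pairs (p = 0.0021, exact permutation; adjusted p = 0.0146). Alpha, with 89.7 ± 8.2 under TMZ and 89.8 ± 10.6 under solvent, differed by 0.00 (p = 0.984, exact), and beta, with 79.8 ± 6.4 and 79.7 ± 19.8, by 0.04 (p = 0.769, exact). These rates cover the windows centred within an array, and the first 2.5 kb of PCDHB1 lie just outside those of beta. Whether gamma differed more than alpha or beta was not tested. The rate of the other bases was not compared by array, so the gamma difference is not read as specific to G.

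The gamma difference was -0.12, 0.49 and 0.36 within the library sets. It was 0.39 without the library that stood apart (adjusted p = 0.0098, exact) and 0.45 without the cell libraries of the first set (adjusted p = 0.0098, exact). It missed the threshold without replicate 1 (0.42, adjusted p = 0.076), replicate 2 (0.37, adjusted p = 0.14) or replicate 3 (0.28, adjusted p = 0.26), and against the 1 Mb on each side (0.17, adjusted p = 0.18), all by exact permutation tests. In MGMT cells gamma rose from 65.6 ± 12.3 to 93.6 ± 6.8 (n = 6 each). In WT cells it went from 73.1 ± 11.8 to 83.1 ± 14.3 (n = 6 each). WT cells with 1 exposure showed no rise, with 62.7, 73.5 and 77.2 GPM under TMZ and 78.7, 61.4 and 80.9 under solvent. With 3 exposures they had 101, 92.0 and 92.0 under TMZ and 63.6, 90.1 and 63.6 under solvent. The TMZ effects of the lines differed by 0.34 (exact permutation test, p = 0.0525, adjusted p = 0.314 over 8 such tests), so that no difference between the lines passed. Naked DNA and WT cells under TMZ differed by -0.12 in alpha (p = 0.298), -0.13 in beta (p = 0.119) and 0.14 in gamma (p = 0.405), by exact permutation tests.

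**Figure D4:**
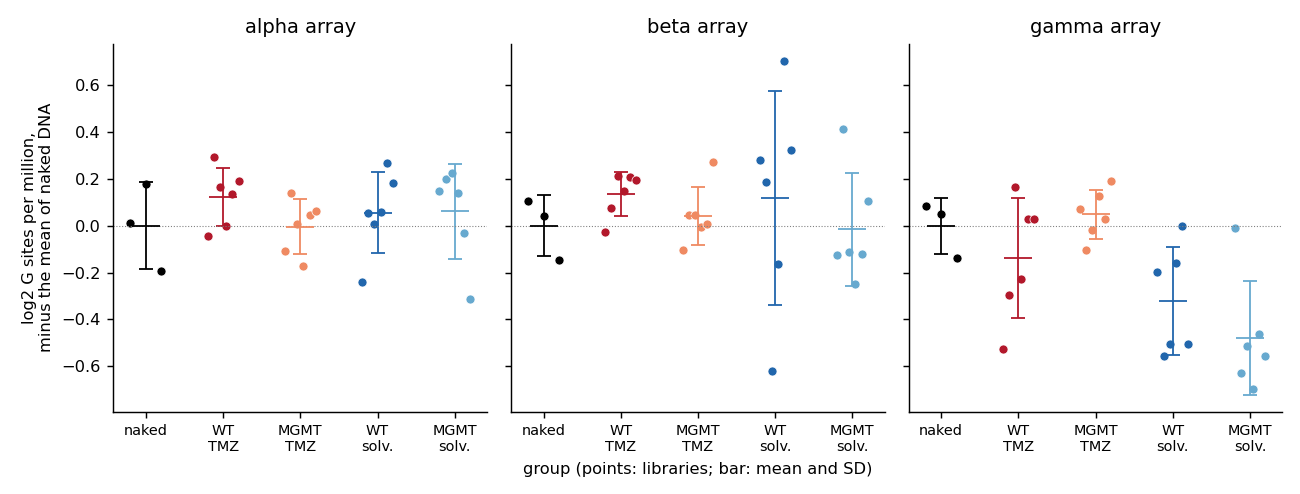
Log2 G rate of the alpha, beta and gamma arrays minus the mean of naked DNA (y axis), 1 point per library with mean and SD, by group (x axis). In gamma all solvent points lie below 0, as do those of WT cells with 1 TMZ exposure and some others under TMZ. In alpha and beta the groups lie around 0.

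Windows were compared with limma's voom on the autosomal windows, fitted to all 27 libraries. In 50 kb blocks, 1 of the 15 blocks of the span passed between TMZ and solvent, against 10.2% of all autosomal blocks (5.15% in the direction of TMZ). The share in the span is near this background, so nothing particular to the span is read from it. The number of blocks that passed was 2 without replicate 1 (4065 of all 53282), 0 without replicate 3 (1139 of all 53291) and 3 with no minimum score (7480 of all 55054). The last of the 15 blocks, 1 of these 3, has only 26.8 of its 50 kb in the span. The block that passed with all libraries covers chr5:141386140-141436139 in gamma and holds the starts of 9 genes, PCDHGB4, PCDHGA8, PCDHGB5, PCDHGA9, PCDHGB6, PCDHGA10, PCDHGB7, PCDHGA11 and PCDHGA12. G sites there came to 21.0 ± 3.8 GPM under TMZ, with a lowest library of 13.3, a median of 21.8 and a highest of 26.5 (n = 12), and 13.8 ± 8.0 under solvent, with 2.94, 15.2 and 29.0 (n = 12). The groups overlapped, and naked DNA had 23.1 ± 1.0 (n = 3). The block's log2 difference was 0.79 (SE 0.18, limma's adjusted p = 0.0032). It was 0.97 without the library that stood apart (limma's adjusted p = 0.00029), and without replicate 3 it was 0.75 and lost the call (limma's adjusted p = 0.085). The other bases also had more sites there, 19.1 ± 4.2 per 1000000 sites of their kind under TMZ and 13.3 ± 2.9 under solvent.

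In that block MGMT cells under TMZ had 23.5 ± 2.3 and WT cells 18.5 ± 3.4 GPM (n = 6 each). This log2 difference of 0.35 did not pass (limma's adjusted p = 0.22). Of the 15 blocks, 0 passed for MGMT against WT cells under TMZ, against 5.01% of all blocks. Between 3 exposures and 1, 0 of 15 passed, against 0.00187% of all, and between naked DNA and WT cells 0 of 15, against 0.0% of all. At an unadjusted limma p of 0.05, 1, 3 and 0 of the 15 blocks were below it in these 3 comparisons, against 18.1%, 7.81% and 5.35% of all blocks. Values of limma-trend on blocks were not kept for them.

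**Figure D5:**
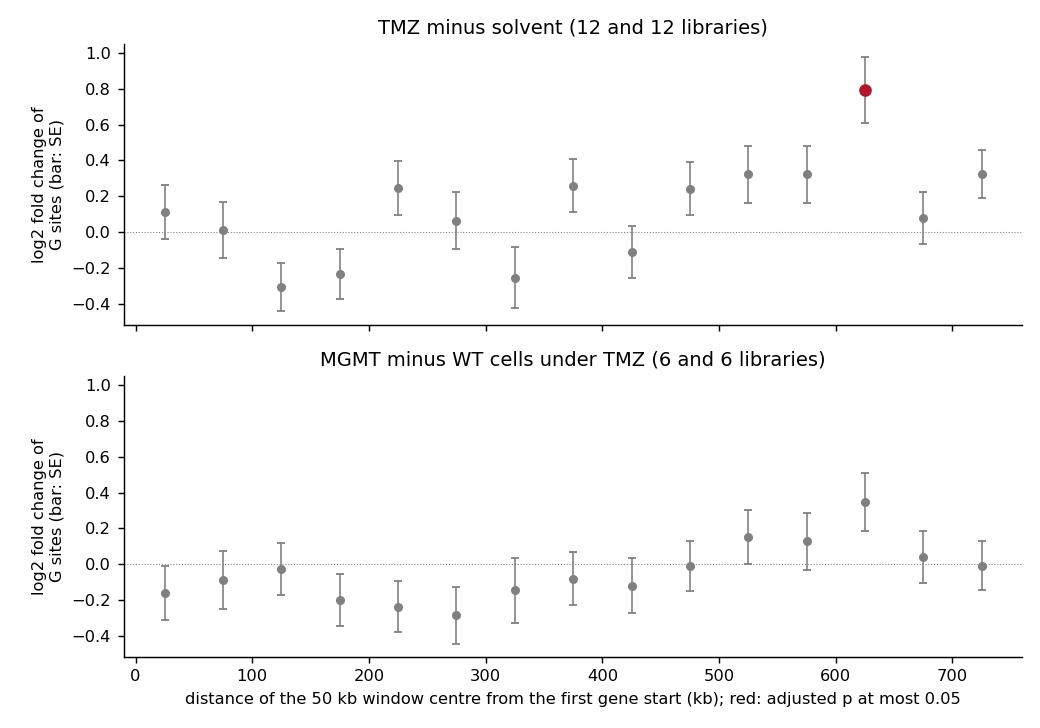
Log2 difference in G sites with its SE (y axes) in each 50 kb block against the distance of the block's centre from the first gene start in kb, for TMZ minus solvent (upper panel) and MGMT minus WT cells under TMZ (lower panel). The gamma block at 0.79, in red, is the one that passed.

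In 10 kb windows 3 of 72 tested passed between TMZ and solvent, all higher under TMZ, against 3.46% of all windows (3.18% higher). They were a beta window with no member start between PCDHB6 and PCDHB7 (log2 difference 1.33, SE 0.31, limma's adjusted p = 0.0052), the window of PCDHGB7 and PCDHGA11 (1.17, SE 0.30, limma's adjusted p = 0.012) and that of PCDHGC5 (1.10, SE 0.30, limma's adjusted p = 0.017). In GPM they had 4.47 ± 2.03, 4.84 ± 1.25 and 6.55 ± 1.73 under TMZ and 1.94 ± 2.72, 2.18 ± 2.42 and 3.30 ± 2.72 under solvent, where each had a library at 0 and no library had more than 5 sites. The share passing was close to the background, and at this window size the fit made more false than true calls for this comparison on simulated data. For MGMT against WT cells under TMZ, 3 exposures against 1, and naked DNA against WT cells, 0 of 72 windows passed, as did 0.0% of all windows. At an unadjusted limma p of 0.05 there were 4, 3 and 0 of 72, against 6.10%, 4.04% and 1.87% of all windows. Called by limma-trend were 0 in each. On simulated data the fit recovered 2.04%, 1.54% and 2.54% of the windows changed 2-fold in these comparisons. A result of 0 windows here therefore does not show that such differences are absent.

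Tests of whether the TMZ effect on the span, gamma, the gene starts or the high-score share differed between the lines or between 3 exposures and 1 gave no adjusted p below 0.314 in 8 exact permutation tests. The share of sites at G in the span, relative to the autosomes, differed by 0.52 points between TMZ and solvent (p = 0.497, exact) and by 0.98 points between MGMT and WT cells under TMZ (p = 0.07, exact).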

How the data were processed

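The authors deposited 1 list of distinct sites per library with a strand, a base and a whole-number score, per the files themselves; the score's meaning is not given in the sources used here, and no read counts were available to the fits. The submitters' processing notes name FastQC 0.11.9, Trimmomatic 0.38 and 0.39, cutadapt, Bowtie2 2.3.5.1, GATK 4.2.0.0, SAMtools 1.12, bedtools 2.29.2 and the build GRCh38. All 516092 sites that fell in RefSeq promoter sequences had the base of the sequence. Positions were converted to count from 1. The members and lists were chosen with earlier results of these data known.

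Sites with a score of at least 30 were counted over the span, arrays, 10 kb windows and first 2.5 kb of genes, divided by the library's autosomal sites at the same kind of base, and set on the log2 scale, with 0.5 added to each strand's number in strand ratios. Arrays were made of the whole windows centred within them. Single values were compared by two-sided exact permutation tests of the 24 cell libraries within line, exposure number or treatment (naked DNA against the 6 WT libraries under TMZ without strata), with Benjamini-Hochberg adjustment over 21 tests at 0.05. P-values measure the spread between the replicates, which the labels call biological. Autosomal windows with at least 10 G sites in each of at least 3 libraries were fitted with limma 3.58.1 (voom, R 4.3.3) as 9 group means. The unit suited no count model, so limma replaced one. The fits were tested on simulated data. At 10 kb the comparison of TMZ with solvent made more false than true calls, and the other comparisons recovered at most 2.54% of the changed windows. The 50 kb blocks recovered 89.5% to 96.5% and made fewer false than true calls. Named windows were the extremes of each array in naked DNA, the lowest shares of high score and those past the threshold; named genes were the first and last of each array, the C-type genes and the 3 highest and 3 lowest starts in naked DNA. Python 3.11.15, numpy 2.4.6, pandas 2.3.3 and scipy 1.17.1 were used. Alternatives were other minimum scores, the 1 Mb on each side as reference, the replicate number as a block, library sets, each replicate left out, the first 5 kb of genes, other filters and window sizes. The promoters of 7 members (PCDHA3, PCDHA13, PCDHA14, PCDHB6, PCDHB11, PCDHGA12 and PCDHGC5), the X chromosome's genes and other contigs were not used here.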

Additional observations from a re-analysis of the deposited data

How the results depend on the processing

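Of 184 alternative values of the 21 single-value results, 141 kept their direction and their side of the threshold, 11 no longer passed, 5 newly passed and 27 changed sign; among the latter no value passed the threshold in either setting. With no minimum score the span G rate passed for TMZ against solvent (0.20) and for 3 exposures against 1 (0.23), the other-base rate passed for TMZ against solvent (0.18), and the span G rate of naked DNA minus WT cells turned to 0.019. With a minimum score of 10 the high-score difference between TMZ and solvent was -4.60 and did not pass. With the 1 Mb on each side as reference the TMZ differences turned to -0.060 for the span G rate, -0.18 for alpha, -0.15 for beta, -0.040 for the other-base rate and -1.23 points for the G share, those between MGMT and WT to 0.093, 0.097 and -0.050 points for the span G rate, other-base rate and G share, and that between exposures to -0.0084, while gamma (0.17) and the high-score share (-2.47) no longer passed.

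The replicate numbers were not taken to pair the libraries, since not every pair of like-numbered libraries correlated above 0.1 (7 of 12 did between lines and 6 of 12 between treatments), although all pairs of 1-exposure cell libraries of replicates 1 and 2 did, with 0.39 to 0.66. As an alternative, replicate number was held as a block, for single values by an exact sign-flip test of the differences between like-numbered libraries. The gamma difference of 0.35 then did not pass (sign-flip test, adjusted p = 0.058), and no other call changed. Within library sets the naked minus WT differences turned to 0.28 for the span, 0.056 for alpha and 0.13 for beta, and the TMZ differences to -0.023 for alpha and 0.0029 for the strand ratio. These naked minus WT values are 1 naked library minus 1 WT library, the only ones to share a set, so no conclusion is drawn from their sign. With naked DNA of WT cells only, the span difference was 0.045. Without the cell libraries of the first set the other-base difference passed (0.071), as it did without replicate 1 (0.085), and the strand ratio turned to 0.011 for TMZ and -0.032 for naked DNA.

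Leaving out each replicate gave ranges of 0.57 to 0.80 for the gene starts, 0.28 to 0.42 for gamma, -6.60 to -3.90 for the high-score share, 0.043 to 0.085 for the other-base rate, -0.013 to 0.017 for alpha, -0.033 to 0.16 for beta and -0.12 to 0.052 for the strand ratio between TMZ and solvent. For MGMT minus WT they were -0.047 to 0.011 for the span G rate and -0.0025 to 0.22 for the strand ratio, and for naked DNA minus WT cells -0.11 to 0.057 for the span G rate and -0.11 to 0.11 for the strand ratio. The span G rate ranged from 0.080 to 0.17 for TMZ minus solvent and from 0.076 to 0.18 for 3 exposures minus 1. Naked DNA minus WT cells gave -0.17 to -0.041 in alpha, -0.21 to -0.044 in beta, 0.074 to 0.23 in gamma and 0.23 to 0.42 at the gene starts. The 3 windows that passed between TMZ and solvent were 6 with at least 1 site in 3 libraries (18423 of all 268443 windows passed). With no minimum score they were 7, of which 1 was lower under TMZ (9621 of all 269518). Without the MGMT solvent library that stood apart they were 7 (13762 of all 254861), and at 50 kb 1 (5417 of all 53342). When a replicate was left out they were 0 to 2 (726 of all 247402 without replicate 3, 5710 of all 247190 without replicate 1). The depth of the solvent libraries limits each comparison with them. The settings on naked DNA of WT cells, the single library and the first set were chosen after seeing the data.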

Other observations

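Few single positions were marked again. Of 5852 G positions of the span marked in naked DNA, 97 were marked in exactly 2 of the 3 naked libraries and 1 in 3. Of all naked positions 8.10% were also marked in a TMZ-treated cell library, and of the 98 recurring ones 23 (23.5%). The highest number of libraries to share a position was 5 of 27, reached among others at a plus-strand G in the first 2.5 kb of PCDHAC2 (chr5:140968623) and at one in that of PCDHB2 (chr5:141095770).

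The protocadherins outside the cluster form single genes on several chromosomes. Of 12 listed, 10 are autosomal and were measured over their gene bodies. In naked DNA PCDH1 had a log2 density of -0.26, PCDH12 -0.49 and PCDH8 -1.22 G sites per kb per 1000000 autosomal G sites, above the span of the cluster (-1.28), and the other 7 lay between -2.85 and -2.09. WT cells under TMZ differed from naked DNA by -0.25 to 0.52 in these genes, described without a test.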
